A study of Mus musculus with 25 samples.

Results

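The genes described are the transmembrane carriers for glucose, lactate, amino acids and mitochondrial metabolites: every protein-coding gene whose mouse symbol is Slc2a, Slc16a, Slc7a, Slc38a or Slc25a followed by digits. The rule used names alone and no measured value, but it was chosen with earlier results of these data known. It gave 99 genes of the 36528 gene IDs in the count tables: 12 of the Slc2 family, 14 of Slc16, 15 of Slc7, 11 of Slc38 and 47 of Slc25. RNA was sequenced from brain cells of mice aged 6 months, sorted as neurons by the nuclear protein NeuN or as astrocytes by the filament protein Gfap. The mice were hMAPT-P301S transgenic, carrying human tau with the P301S mutation, or Non-Tg littermates without the transgene (non-Tg below). The groups held 6 P301S neuron libraries, 8 non-Tg neuron libraries, 5 P301S astrocyte libraries and 6 non-Tg astrocyte libraries. The promoter driving the transgene, the number of animals behind a library and any link between a neuron and an astrocyte library are not in the labels, so p-values measure the spread between these libraries, which may be partly technical. The Cd11b+ cells of the same experiment were not analysed here.

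Solute carriers set which fuels and building blocks a cell can exchange with its surroundings and with its mitochondria. Slc2 proteins (GLUTs) pass sugars, Slc16 proteins (MCTs) pass lactate, ketone bodies and aromatic amino acids, Slc7 and Slc38 proteins pass amino acids across the plasma or lysosomal membrane, and Slc25 proteins pass metabolites, nucleotides and ions mostly across the inner mitochondrial membrane. In brain, astrocytes are known for taking up glucose, releasing lactate and glutamine and importing cystine, while neurons are known for taking up lactate and glutamine.

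Total counts ran from 1245964 to 4453555 per library, and the 99 carriers took 0.152% to 0.300% of them. Levels are given as CPM, the count divided by the library's total over genes that passed the filter, scaled by the TMM method, times 1000000. The floor used was 3 counts, which was 0.571 to 2.27 CPM on that scale depending on the library and covers counting error only. Summed over 10 astrocyte markers, non-Tg astrocyte libraries reached 13908 to 22612 CPM against 226 to 545 CPM in non-Tg neurons. The 8 neuron markers summed to 999 to 1519 CPM in non-Tg neurons and 124 to 218 CPM in non-Tg astrocytes, and Rbfox3, the gene of NeuN, averaged 72.7 ± 22.3 CPM (SD, n = 8) against 5.10 ± 4.0 (SD, n = 6). After thinning to 1245964 counts, 12405 to 16858 genes were detected in P301S astrocytes, 15439 to 18460 in non-Tg astrocytes and 18259 to 19579 in neurons of both genotypes. P301S astrocyte library 4 had the fewest genes detected and the lowest share of counts in carriers, and library 3 the next fewest genes. The labels' protocol gives far lower typical RNA yields for astrocytes than for neurons, and this difference cannot be told apart from cell type. Differences are log2, given as neurons minus astrocytes or P301S minus non-Tg with the standard error (SE). A gene was called at an adjusted p under 0.05 over all genes tested (edgeR quasi-likelihood F test, Benjamini-Hochberg).

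Of the 99 carriers, 69 passed the filter on low counts in at least 1 comparison and 30 passed in none. The 30 were 3 Slc2, 5 Slc16, 5 Slc7, 4 Slc38 and 13 Slc25 genes. Slc16a3 (MCT4), known as a lactate exporter of glycolytic cells, averaged 0.164 ± 0.278 CPM in non-Tg astrocytes (SD, n = 6) and 0.205 ± 0.386 in non-Tg neurons (SD, n = 8), both under the lowest floor. Slc2a5 (GLUT5), the fructose carrier, was also low in each group, with means from 0.357 to 1.46 CPM. Slc25a5, a form of the adenine nucleotide translocator, had means from 1.22 to 2.98 CPM. Only uniquely aligned reads were counted and the reference holds a processed copy of the gene. The effect of this on the Slc25a5 counts was not tested, so they are uncertain.

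The first question was how the carriers differ between the sorted cell types. In non-Tg mice 38 of 67 tested carriers were called, 15 higher in neurons and 23 lower. Over all 14197 genes tested 46.9% were called, 21.8% higher and 25.1% lower in neurons. The members' median difference was -0.41 and that of all tested genes -0.11. With RLE size factors in place of TMM the median of all genes moved to 0.08, so small differences depend on the scaling. All neuron libraries lay above all astrocyte libraries for 11 of the 67 carriers (16.4%), where 15.7% of all tested genes did, so this share was close to the background. All neuron libraries lay below all astrocyte libraries for 16 of the 67 (23.9%), where 15.4% of all tested genes did. Each of the 5 families had members called in both directions, as the plot of differences by family shows. In such sorted samples a lower level can come from fewer cells of a type or from less RNA per cell, and these cannot be told apart.

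**Figure D1:**
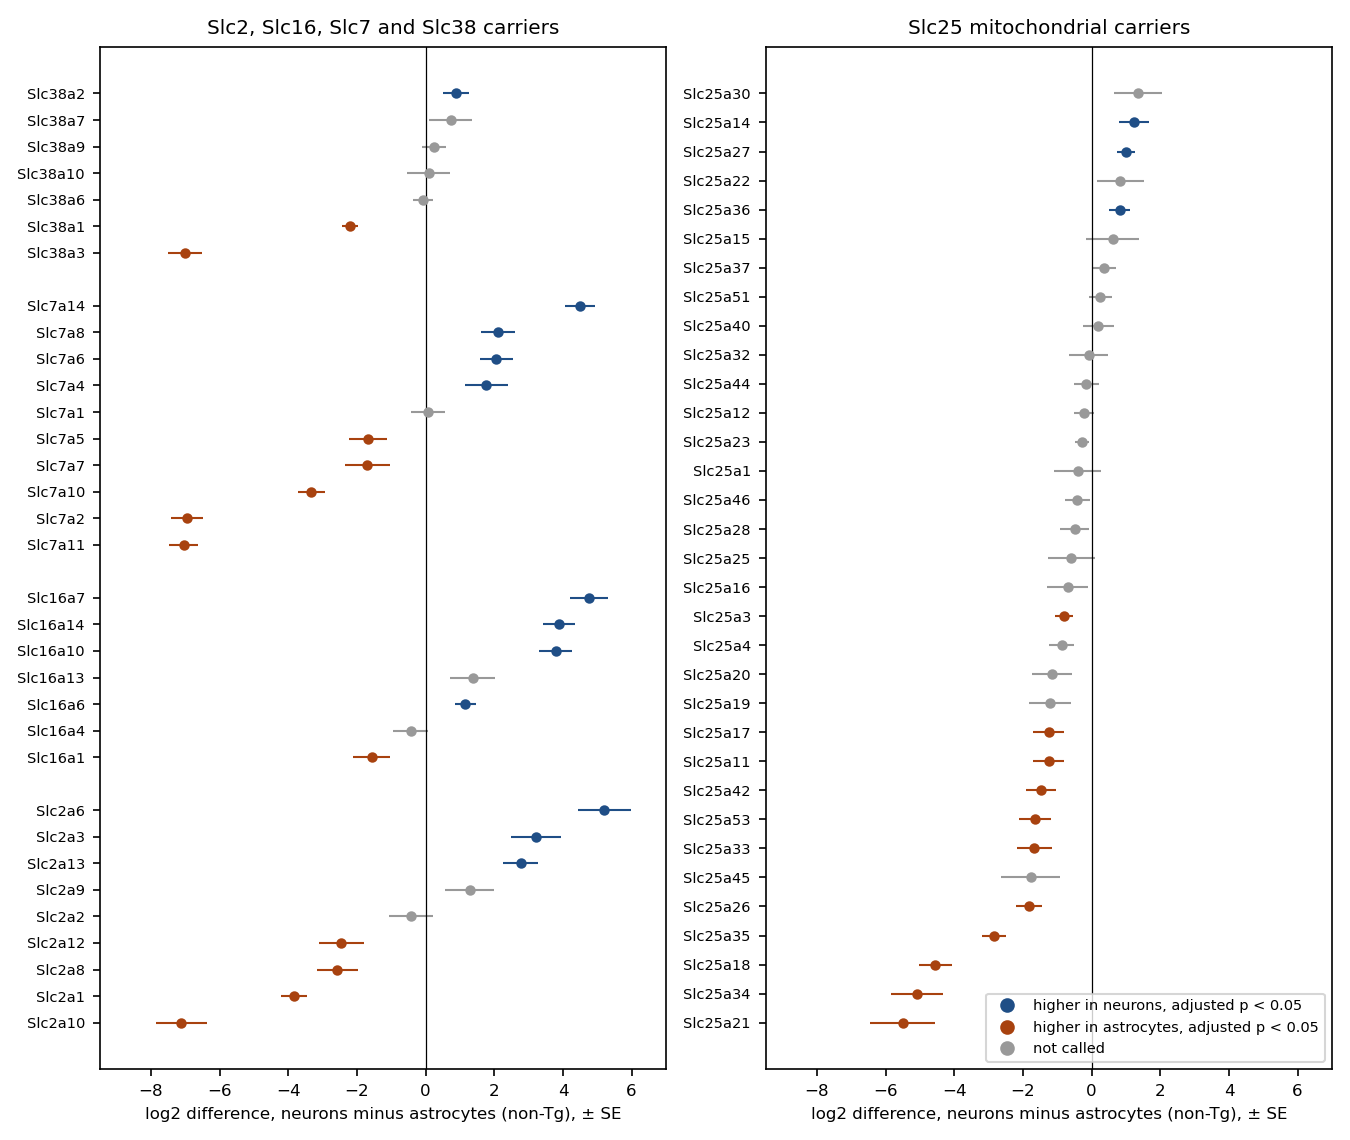
Log2 difference of the tested carriers reported by name, neurons minus astrocytes in non-Tg mice, on the x axis with its SE as a bar, and genes by family on the y axis. Blue points are called higher in neurons and brown points higher in astrocytes, and called genes run from -7.11 for Slc2a10 to 5.21 for Slc2a6.

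Among the 9 tested Slc2 sugar carriers, 4 were lower and 3 higher in neurons (77.8% called, against 46.9% of all tested genes). Slc2a1 (GLUT1, chr4:119108745-119137330 on GRCm38), the glucose carrier of astrocytes and of the blood-brain barrier, measured 32.0, 53.4 and 65.9 CPM (lowest, median and highest) in non-Tg astrocytes and 1.42, 3.43 and 5.89 in non-Tg neurons. The 2 groups stood apart, with a difference of -3.84 (SE 0.38, adjusted p = 2.42e-10). Barrier endothelial cells also carry Slc2a1. The 10 endothelial markers summed to 3.50 to 39.5 CPM in non-Tg astrocytes and 10.97 to 20.9 in non-Tg neurons. None was at 0 throughout either group. The 1 tested, Tek, was called higher in neurons (2.39) and averaged 11.2 CPM there. Of the markers not tested here, Kdr and Esam also had higher means in neurons, and the others had higher means in astrocytes. Among the latter were Abcb1a (8.37 CPM in astrocytes against 1.13 in neurons) and Flt1 (5.89 against 0.478). The part of endothelial cells in the Slc2a1 difference was not tested. Slc2a3 (GLUT3), the neuronal glucose carrier, ran the other way, with 10.7, 17.7 and 25.5 CPM in non-Tg neurons and 0, 0.983 and 5.07 in non-Tg astrocytes. Its difference was 3.22 (SE 0.73, adjusted p = 0.000418).

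Slc2a10 (GLUT10) was 1 of 4 carriers with differences near -7, with Slc7a11, Slc38a3 and Slc7a2 below, and their order is within the SE. It measured 39.4, 61.3 and 154 CPM in non-Tg astrocytes and at most 2.22 in non-Tg neurons, a difference of -7.11 (SE 0.74, adjusted p = 8.23e-10). Counts of Slc2a10 and of Slc38a3 ran from 0 to 4 per non-Tg neuron library. The fitted values of genes this low in neurons depend on the prior count and are no bounds. Slc2a8 and Slc2a12, further members of the GLUT family, were lower in neurons, with differences of -2.57 (SE 0.59) and -2.46 (SE 0.66). Slc2a13, the proton-coupled myo-inositol carrier, measured 35.4, 63.0 and 92.4 CPM in non-Tg neurons and 3.89, 6.89 and 17.4 in non-Tg astrocytes (difference 2.76, SE 0.51, adjusted p = 2.70e-05). Slc2a6 (GLUT6) averaged 8.63 ± 5.69 CPM in non-Tg neurons (SD, n = 8) and 0.22 ± 0.398 in non-Tg astrocytes (SD, n = 6), where it lay under the floor.

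Of 8 tested Slc16 monocarboxylate carriers, 4 were higher in neurons and 1 was lower (62.5% called, against 46.9% of all tested genes). Slc16a7 (MCT2, chr10:125219270-125389586), the high-affinity lactate carrier of neurons, measured 79.8, 172 and 202 CPM in non-Tg neurons and 1.46, 4.12 and 14.4 in non-Tg astrocytes. All 8 neuron libraries lay above all 6 astrocyte libraries, with a difference of 4.76 (SE 0.56, adjusted p = 1.10e-08). Slc16a10, a carrier of aromatic amino acids, differed by 3.78 (SE 0.48) and Slc16a14, a carrier without an established substrate, by 3.88 (SE 0.46). Slc16a6 (MCT7) showed a smaller difference of 1.16 (SE 0.29, adjusted p = 0.00135).

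Slc16a1 (MCT1), the lactate carrier of glia and endothelium, was the Slc16 gene called lower in neurons. It measured 2.04, 22.3 and 54.5 CPM in non-Tg astrocytes and 5.52, 7.35 and 12.3 in non-Tg neurons, so the ranges overlapped (difference -1.58, SE 0.54, adjusted p = 0.0158). Leaving out non-Tg astrocyte library 6, the highest, gave -1.13 with adjusted p = 0.095. Oligodendrocyte markers moved the same way, with sums of 207 to 546 CPM over 9 genes in non-Tg astrocytes and 44.6 to 91.2 in non-Tg neurons, and 7 of 7 tested were called lower in neurons. Their part in the Slc16a1 difference was not tested.

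**Figure D2:**
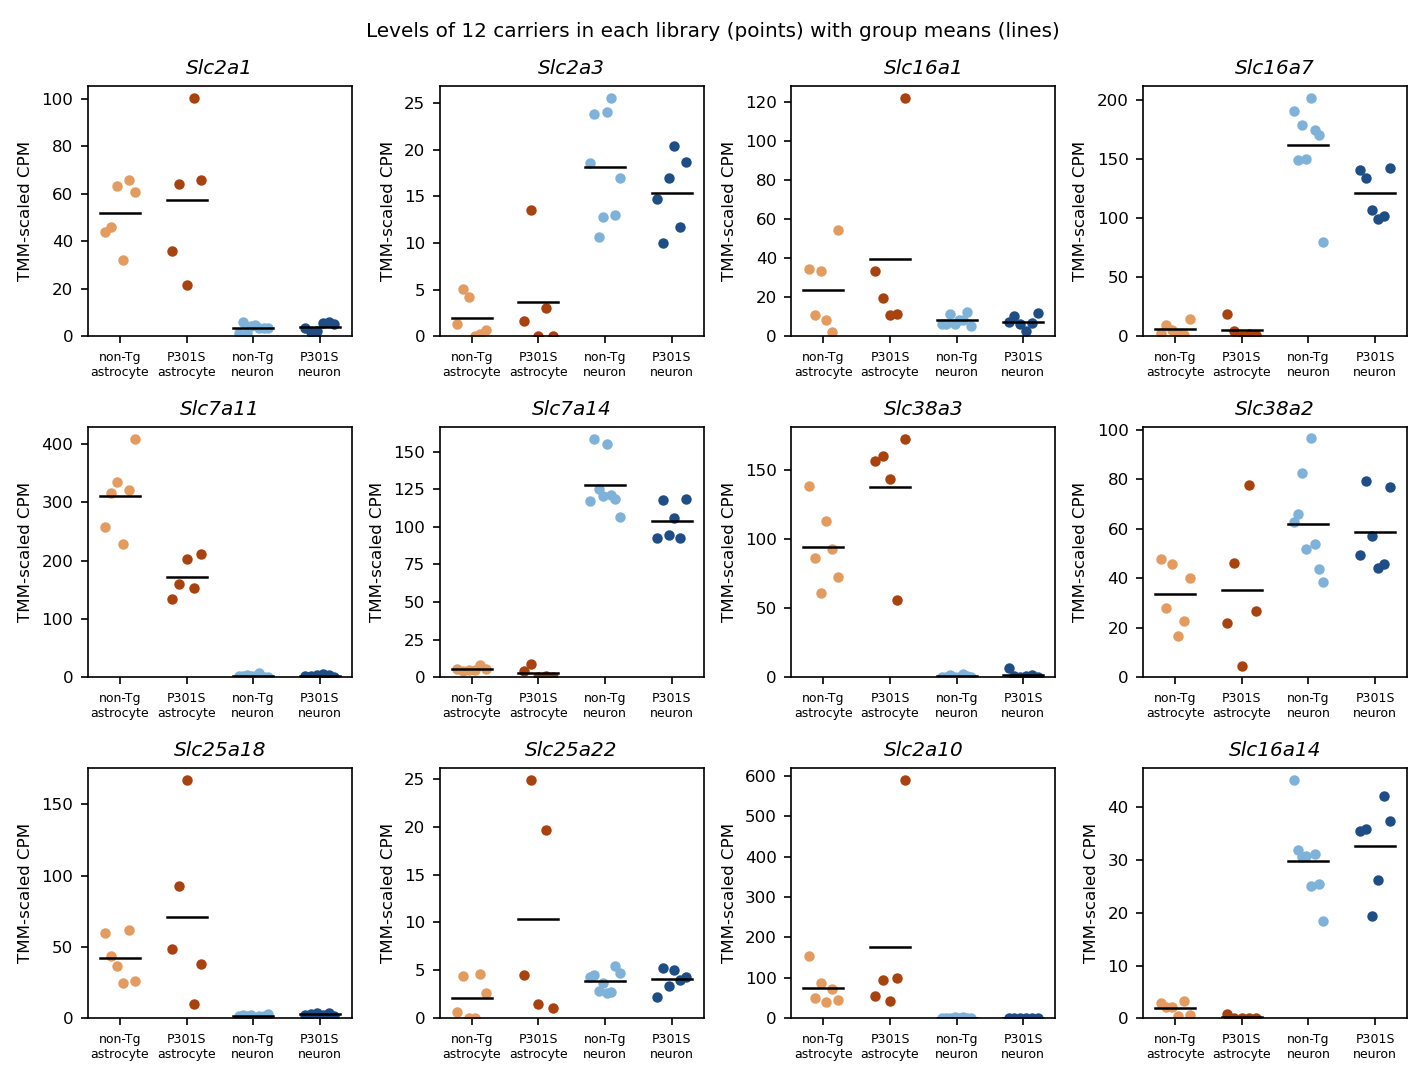
TMM-scaled CPM of 12 carriers on linear y axes that start at 0, with 1 point per library in the 4 groups on the x axis and lines at the group means. Slc7a11 lies at 228 to 408 in non-Tg astrocytes, 134 to 211 in P301S astrocytes and at most 7.21 in neurons, while Slc16a7 and Slc7a14 are high in neurons.

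Of 10 tested Slc7 genes 9 were called (90.0%, against 46.9% of all tested genes), 5 lower and 4 higher in neurons. The summed level of the family was 860 to 1078 CPM in non-Tg astrocytes and 212 to 269 in non-Tg neurons. Slc7a11 (xCT, chr3:50364936-50499087), which imports cystine in exchange for glutamate, measured 228, 318 and 408 CPM in non-Tg astrocytes and 0.381, 2.01 and 7.21 in non-Tg neurons. The difference was -7.05 (SE 0.43, adjusted p = 3.88e-15). Slc7a2 (chr8:40862341-40922070), a carrier of arginine and lysine, measured 409, 451 and 589 CPM in non-Tg astrocytes against 0.761, 2.09 and 12.2 in non-Tg neurons (difference -6.95, SE 0.46). Slc7a10 (Asc-1), which exchanges small neutral amino acids including serine, measured 57.2, 108 and 204 CPM against 4.95, 11.9 and 19.6 (difference -3.33, SE 0.38).

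Slc7a14 (chr3:31202854-31310567), of the cationic amino acid carrier branch, was 1 of the 4 Slc7 genes higher in neurons. It measured 107, 121 and 158 CPM in non-Tg neurons and 4.44, 5.14 and 8.17 in non-Tg astrocytes, a difference of 4.49 (SE 0.43, adjusted p = 1.45e-10). Slc7a6 and Slc7a8, light chains of heteromeric amino acid exchangers, were also higher in neurons, at 2.06 (SE 0.49) and 2.10 (SE 0.49). Slc7a5 (LAT1), the light chain for large neutral amino acids, measured 3.80, 7.42 and 22.5 CPM in non-Tg astrocytes and 1.42, 2.80 and 4.19 in non-Tg neurons, with overlap (difference -1.68, SE 0.56, adjusted p = 0.0137). Without non-Tg astrocyte library 5, its highest, the difference was -1.17 (adjusted p = 0.0943). Slc3a2, the heavy chain these light chains pair with, was also lower in neurons, at -1.32 (SE 0.36, adjusted p = 0.00311).

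The promoters of 3 of these genes are shown because Slc7a11 and Slc7a14 had opposite cell type patterns, and Slc16a1 shared the direction of Slc7a11. Each sequence is the 250 bases before the annotated start (RefSeq, GRCm38.p6), in the direction of transcription; the starts of Slc7a11 and Slc7a14 lie inside the gene spans given above. Capitals mark matches on either strand to TGATGNAA, the core of the amino acid response element read by Atf4 and its partners, or TGACNNNGC, the core of the antioxidant response element read by Nrf2. The 2 motifs share their first letters but no match overlapped another here.
Slc7a11 promoter, chr3:50443614-50443863, minus strand: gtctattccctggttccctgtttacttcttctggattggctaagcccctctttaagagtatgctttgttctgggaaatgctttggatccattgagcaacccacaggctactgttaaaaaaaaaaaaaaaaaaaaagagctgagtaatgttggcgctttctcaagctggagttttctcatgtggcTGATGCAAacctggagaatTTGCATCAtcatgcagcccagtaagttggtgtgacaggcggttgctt
Slc16a1 promoter, chr3:104638414-104638663, plus strand: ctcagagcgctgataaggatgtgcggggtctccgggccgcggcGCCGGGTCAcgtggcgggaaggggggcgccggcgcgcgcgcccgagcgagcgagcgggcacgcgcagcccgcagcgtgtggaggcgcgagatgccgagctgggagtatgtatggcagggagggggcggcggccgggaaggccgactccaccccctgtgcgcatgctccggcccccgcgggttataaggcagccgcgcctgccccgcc
Slc7a14 promoter, chr3:31310320-31310569, minus strand: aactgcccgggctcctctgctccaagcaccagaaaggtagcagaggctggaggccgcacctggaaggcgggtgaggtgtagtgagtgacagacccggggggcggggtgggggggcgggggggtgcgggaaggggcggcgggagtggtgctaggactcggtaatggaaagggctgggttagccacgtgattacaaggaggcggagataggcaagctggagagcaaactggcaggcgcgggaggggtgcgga
The Slc7a11 window held 2 matches to TGATGNAA, facing each other 66 and 47 bases before the start, the Slc16a1 window held 1 match to TGACNNNGC, and the Slc7a14 window held neither. Of 32851 promoter windows of the same length, 3.45% held TGATGNAA at least once, 0.0396% held it at least 2 times and 10.2% held TGACNNNGC. Windows were present for 73 of the 99 carriers. Of their 93 windows, 3 held TGATGNAA and 14 held TGACNNNGC. A match describes the letters and is no evidence of binding.

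Of 7 tested Slc38 amino acid carriers, 2 were lower and 1 higher in neurons (42.9% called, below the 46.9% of all tested genes). Slc38a3 (SNAT3, chr9:107651154-107668968), known for glutamine release from astrocytes, measured 61.2, 89.5 and 138 CPM in non-Tg astrocytes and at most 2.22 in non-Tg neurons (difference -7.01, SE 0.50, adjusted p = 1.67e-13). Slc38a1 (SNAT1), a sodium-coupled glutamine carrier, measured 117, 161 and 280 CPM in non-Tg astrocytes and 26.7, 37.2 and 46.7 in non-Tg neurons, without overlap (difference -2.20, SE 0.23, adjusted p = 1.60e-09). Slc38a2 (SNAT2), of the same transport system, overlapped between the groups, at 38.6, 58.3 and 96.6 CPM in non-Tg neurons and 16.8, 34.0 and 48.0 in non-Tg astrocytes. Its difference of 0.88 (SE 0.37) just passed the threshold (adjusted p = 0.0496) and passed it in 20 of 35 other settings. Slc38a9, the lysosomal arginine-sensing carrier, differed by 0.24 (SE 0.35) and was not called.

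Slc25 was the largest family, with 14 of 33 tested genes called, 11 lower and 3 higher in neurons, a median of -0.59. The share called was 42.4%, below the 46.9% of all tested genes. Slc25a18, a mitochondrial glutamate carrier (chr6:120773504-120794169), measured 24.6, 40.1 and 62.1 CPM in non-Tg astrocytes and 0, 1.55 and 2.86 in non-Tg neurons, with no overlap (difference -4.55, SE 0.48, adjusted p = 1.44e-09). Slc25a22, the other mitochondrial glutamate carrier, averaged 3.88 ± 1.05 CPM in non-Tg neurons (SD, n = 8) and 2.07 ± 2.16 in non-Tg astrocytes (SD, n = 6) and was not called (difference 0.84, SE 0.68, adjusted p = 0.331). Slc25a12, the aspartate and glutamate carrier of the malate-aspartate shuttle, measured 22.8, 31.7 and 48.7 CPM in non-Tg neurons and 23.1, 35.3 and 66.0 in non-Tg astrocytes, with a difference of -0.22 (SE 0.30, adjusted p = 0.58).

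Slc25a34 and Slc25a35, carriers of poorly defined substrate, were lower in neurons at -5.09 (SE 0.76) and -2.85 (SE 0.34). Slc25a21, the oxodicarboxylate carrier, averaged 6.29 ± 4.50 CPM in non-Tg astrocytes (SD, n = 6) and was under the floor in neurons. In P301S neurons all 6 libraries had 0 counts of it, and the P301S astrocyte libraries measured 2.53, 28.0, 1.87, 12.8 and 0.374 CPM. Against a floor of 3 counts per library, its mean was at least 6.59-fold higher in P301S astrocytes, and at least 3.18-fold without library 2, the highest. Slc25a14, an uncoupling-protein relative, was higher in neurons by 1.23 (SE 0.44, adjusted p = 0.0193). Slc25a27 (UCP4) and Slc25a36, a pyrimidine nucleotide carrier, which fall outside the naming rule and were chosen after their values were seen, averaged 230 ± 54.1 and 230 ± 118 CPM in non-Tg neurons (SD, n = 8) against 115 ± 46.9 and 130 ± 44.9 in non-Tg astrocytes (SD, n = 6). Slc25a3, the phosphate carrier needed for ATP synthesis, was lower in neurons at -0.81 (SE 0.26, adjusted p = 0.00963), but -0.61 with adjusted p = 0.0507 under RLE size factors. Slc25a4, the adenine nucleotide translocator of non-dividing tissue, was at -0.87 (SE 0.37, adjusted p = 0.0504), just outside the threshold.

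Levels of different genes can be compared only per length, as the deposited size-factor-adjusted RPKM (nRPKM). On that scale the first-ranked gene differed between non-Tg astrocytes and neurons in every family. Among Slc2 genes in non-Tg astrocytes the first was Slc2a10 at 3.57 ± 1.99 nRPKM, followed by Slc2a1 at 3.12 ± 0.846, and the 2 overlapped (SD, n = 6). In non-Tg neurons the first was Slc2a13 at 1.79 ± 0.552 (SD, n = 8).

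Slc7a10 and Slc7a2 led their family in non-Tg astrocytes at 9.30 ± 3.83 and 8.82 ± 1.44 nRPKM, which overlapped, and Slc7a14 led in non-Tg neurons at 2.53 ± 0.398. Slc38a3 led in non-Tg astrocytes at 5.46 ± 1.53 and Slc38a2 in non-Tg neurons at 2.44 ± 0.850. Among mitochondrial carriers Slc25a4 and Slc25a23, a calcium-regulated ATP-Mg/phosphate carrier, ranked first and second in non-Tg astrocytes (11.6 ± 5.21 and 8.95 ± 2.68). In non-Tg neurons the same 2 genes led in the opposite order (7.29 ± 3.78 and 8.34 ± 1.99), and in both cell types their ranges overlapped.

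**Figure D3:**
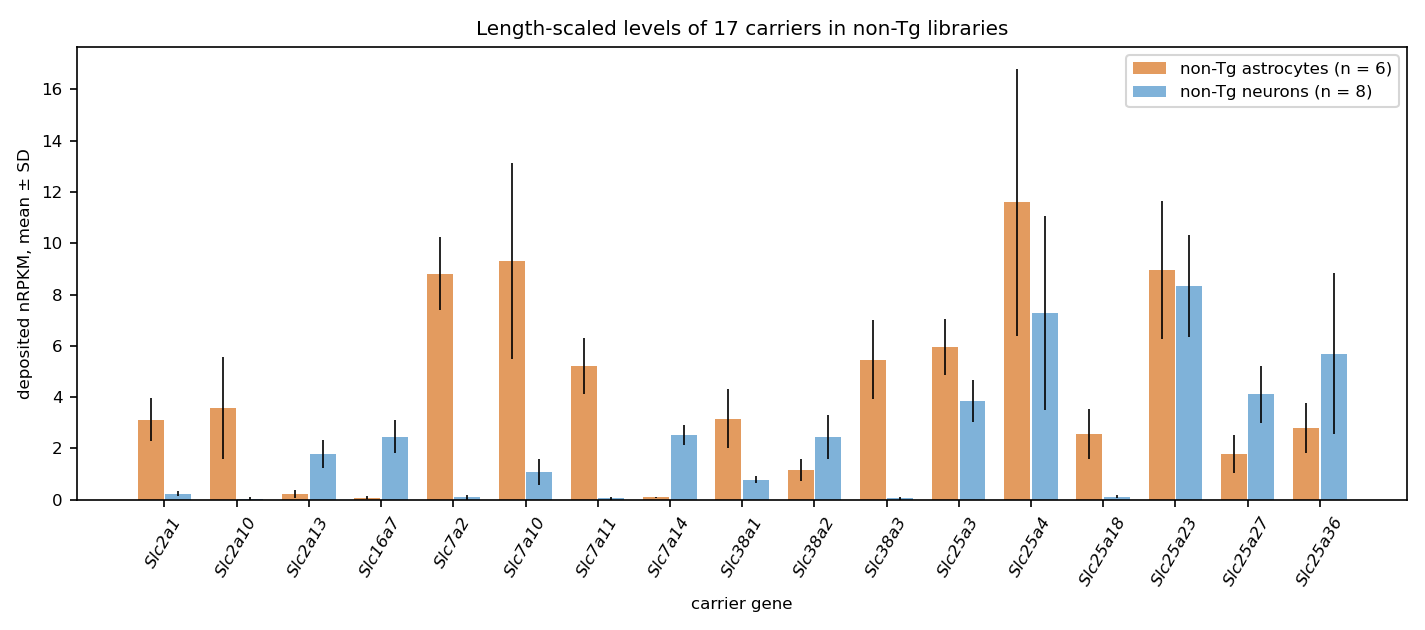
Mean deposited nRPKM with SD as error bars for 17 carriers on the x axis in non-Tg astrocytes (6 libraries) and non-Tg neurons (8 libraries), on a y axis that starts at 0. Slc7a2, Slc7a11, Slc38a3 and Slc25a18 have bars close to 0 in neurons, and Slc16a7 and Slc7a14 close to 0 in astrocytes.

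Genes that work with the carriers were counted from 4 lists. Of 13 genes of glucose and lactate use, 9 (69.2%) were lower in non-Tg neurons and 0 higher, with a median of -2.05, where 46.9% of all tested genes were called and 25.1% were called lower, with a median of -0.11. They included Pdk4 and Pdk2, kinases that restrain pyruvate dehydrogenase (-5.85 and -2.55), Pygb, which breaks down glycogen (-2.79), and the lactate dehydrogenase genes Ldhb and Ldha (-2.60 and -2.05). Of 16 tested carrier partners and other mitochondrial entry proteins, 2 were higher and 4 lower (37.5% called, below the share over all genes), and Bsg, the chaperone of Slc16a1, was at -1.31 (SE 0.44, adjusted p = 0.0136). Of 8 tested amino acid response genes downstream of Atf4, 2 were higher and 4 lower (75.0% called): Asns, asparagine synthetase, was at 4.30 (SE 0.60), whereas Psat1, of serine synthesis, was at -4.27 (SE 0.48). Of 9 tested Nrf2 target genes, 0 were higher and 3 lower (33.3% called, also below that share), and Nfe2l2, which encodes Nrf2, was at -3.23 (SE 0.31).

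In P301S mice 39 of 67 tested carriers were called between the cell types, 12 higher and 27 lower in neurons, where 52.3% of all tested genes were called, 23.2% higher and 29.0% lower. The 31 carriers called in both genotypes had the same direction in each, 12 higher and 19 lower in neurons. Over all genes called in both genotypes, 99.7% had the same direction. The 31 carriers were 81.6% of the carriers called in non-Tg and 79.5% of those called in P301S mice, and over all tested genes these shares were 81.2% and 72.9%. Slc7a11 measured 134, 159, 203, 153 and 211 CPM in the P301S astrocyte libraries and at most 6.18 in P301S neurons (difference -5.80, SE 0.46). Slc16a7 measured 99.5, 121 and 142 CPM in P301S neurons and 19.1, 4.41, 0, 2.27 and 1.12 in P301S astrocytes (difference 4.38, SE 0.60). The P301S count was lower in a fit of P301S libraries alone, at 24 of 56 carriers where 41.2% of all genes were called, and with the number of genes detected as a covariate, at 22 of 67 where 23.2% were.

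The next question was whether the genotype changed the carriers in astrocytes. In the edgeR fit 0 of 61 tested carriers were called between P301S and non-Tg astrocytes, where 0.544% of all 12130 tested genes were. DESeq2 called 1 carrier and 3.55% of all genes, limma voom called 0 carriers, and 8 carriers had an unadjusted p under 0.05, where 13.4% of all tested genes did. The SE of a tested carrier ran from 0.24 to 1.07 on the log2 scale, with a median of 0.72, which sets the size of change these libraries could resolve.

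Slc7a11 had the smallest p. It measured 134, 159, 203, 153 and 211 CPM in P301S astrocytes and 228, 318 and 408 (lowest, median and highest) in non-Tg astrocytes, so each of the 5 P301S libraries lay below each of the 6 non-Tg libraries. The difference was -0.87 (SE 0.24), with adjusted p = 0.109 by edgeR and 0.0422 by DESeq2, and from -0.94 to -0.79 with each library left out in turn. It was the 1 carrier of 61 whose groups did not overlap, where 2.14% of all tested genes stood apart and 0.907% did so in that direction. The number of genes detected was also lower in P301S astrocytes, with a median of 14572 against 17354. With that number as a covariate the difference was -0.96 (adjusted p = 0.997), in a fit that called 0 of all 12130 tested genes. Gfap itself, on which the cells were sorted, averaged 953 ± 163 CPM in P301S astrocytes (SD, n = 5) and 202 ± 105 in non-Tg astrocytes (SD, n = 6), and was called higher (adjusted p = 0.000512). Markers of other cells also moved between the astrocyte groups. The 9 oligodendrocyte markers summed to 392 to 1305 CPM in P301S and 207 to 546 in non-Tg astrocytes. Of 8 tested, 6 had a difference above 0 and 2 below, Cldn11 at -0.84 and Ugt8a at -0.88. An unadjusted p under 0.05 was found for 3 of the 8, among them Mbp at 1.62 and Mobp at 1.78, and none was called. The 10 microglial markers summed to 109.8 to 238 CPM against 60.5 to 129, and 6 of 6 tested had a difference above 0 without being called. No marker of either list was at 0 throughout a group. The 10 astrocyte markers summed to 11974 to 24910 CPM in P301S and 13908 to 22612 in non-Tg astrocytes, and the 8 neuron markers to 115 to 418 and 124 to 218. Slc1a2 alone averaged 12295 CPM in P301S and 14334 in non-Tg astrocytes, so the astrocyte sum mostly followed this gene. Among the 10 astrocyte markers 5 had a difference above 0 and 5 below, and 4 had an unadjusted p under 0.05. The part of Gfap and of these other markers in the Slc7a11 difference and in the carrier differences that follow was not tested.

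The other carriers with small p overlapped between genotypes. Slc25a23, the calcium-regulated ATP-Mg/phosphate carrier, measured 235, 321, 473, 273 and 389 CPM in P301S astrocytes and 115, 190 and 287 in non-Tg astrocytes (difference 0.82, SE 0.27, adjusted p = 0.168). All 5 P301S libraries were above the non-Tg mean. Slc25a44, a carrier of branched-chain amino acids, measured 21.4, 39.4, 26.9, 114 and 18.7 CPM against 8.38, 15.1 and 21.6 (difference 1.54, SE 0.55, adjusted p = 0.207). Without library 4, which gave the value of 114, the difference was 0.82.

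Slc25a46, a carrier-like protein of the outer mitochondrial membrane, measured 28.2, 16.4, 35.5, 115 and 8.23 CPM in P301S astrocytes and 55.2, 87.4 and 148 in non-Tg astrocytes. Library 4 alone reached the non-Tg range. The difference was -1.24 (SE 0.52, adjusted p = 0.298), and -2.10 without library 4, when the gene was called. Slc38a10 and Slc7a4, a poorly characterised carrier in each case, were at 2.24 (SE 0.86) and 2.13 (SE 0.97) and rested on single libraries: the differences were 0.94 without P301S library 3 and 1.03 without P301S library 5. Slc2a10 measured 54.3, 94.8, 43.3, 98.9 and 589 CPM, and its difference of 1.21 (SE 0.54) became -0.04 without library 5.

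From the carriers called lower in neurons in non-Tg mice, 4 are given here for the difference between the astrocyte groups. Slc7a2 was at -0.53 (SE 0.28), Slc38a3 at 0.53 (SE 0.33), Slc25a18 at 0.74 (SE 0.52) and Slc2a1 at 0.13 (SE 0.42), and none of these 4 was called. Slc2a13 was at -2.14 (SE 1.07) with means of 2.00 and 9.35 CPM, and 3 of the 5 P301S libraries were at 0. Slc25a17, a peroxisomal cofactor carrier, was at -1.37 (SE 0.70). When all 25 libraries shared 1 spread, 7 of 67 carriers were called between astrocyte groups, close to the 11.8% of all 14197 genes called in that fit: Slc7a4, Slc25a44, Slc25a23, Slc25a22, Slc38a10, Slc2a13 and Slc16a14. Slc7a11 was not among the 7. Of the 4 lists of related genes, 0 of 15, 0 of 7, 0 of 8 and 0 of 12 tested members were called (carrier partners, Atf4, Nrf2 and glucose and lactate use).

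**Figure D4:**
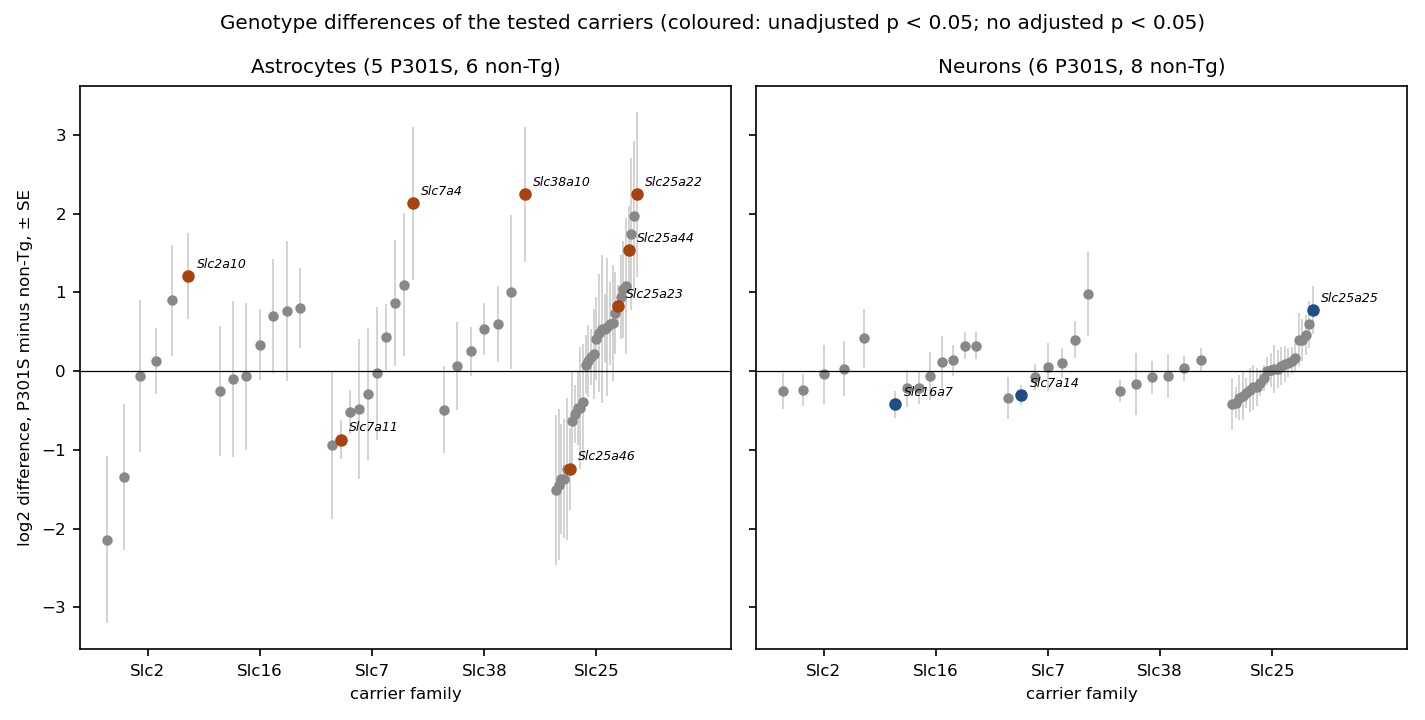
Log2 difference, P301S minus non-Tg, on the y axis with SE as grey bars, by carrier family on the x axis, for 61 tested carriers in astrocytes and 50 in neurons. Coloured points have an unadjusted p under 0.05, none is called, and the astrocyte values spread from -2.14 to 2.24 against -0.43 to 0.98 in neurons.

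In neurons 0 of 50 tested carriers were called between genotypes by edgeR, and 0 by DESeq2 and limma voom, where 0.00913% of all 10951 tested genes were called by edgeR. An unadjusted p under 0.05 was found for 3 carriers, where 7.73% of all tested genes had one. The SE of a tested carrier ran from 0.13 to 0.53, with a median of 0.23. Slc16a7 measured 99.5, 121 and 142 CPM in P301S neurons and 79.8, 172 and 202 in non-Tg neurons (difference -0.43, SE 0.18, adjusted p = 0.597). Each P301S library was below the non-Tg mean, while non-Tg library 8 was the lowest of all 14.

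Slc7a14 measured 92.4, 100 and 118 CPM against 107, 121 and 158, with overlap (difference -0.31, SE 0.13, adjusted p = 0.591). Slc25a25, a calcium-regulated carrier related to Slc25a23, measured 5.08, 9.86 and 11.1 CPM against 0.534, 5.11 and 7.23 (difference 0.77, SE 0.31, adjusted p = 0.571). Other named members were smaller or less certain: Slc25a42, the coenzyme A carrier, was at 0.59 (SE 0.30), Slc25a40 at -0.40 (SE 0.20), Slc16a6 at 0.32 (SE 0.17), Slc16a10 at 0.32 (SE 0.17), Slc25a14 at -0.28 (SE 0.19) and Slc38a9 at -0.25 (SE 0.14). Slc7a2 was at 0.98 (SE 0.53) on levels of 4.10 ± 4.46 CPM in non-Tg (SD, n = 8) and 7.54 ± 3.71 in P301S neurons (SD, n = 6). Astrocyte markers moved the same way in these neurons, with sums of 301.3 to 553 CPM in P301S and 226 to 545 in non-Tg, and 7 of 7 tested had a difference above 0 without being called. Microglial markers summed to 83.7 to 400 CPM (median 113) in P301S and 31.6 to 182 (median 108) in non-Tg neurons. The value of 400 was P301S library 1 alone, and the next highest P301S library was at 134. Of the microglial markers 7 of 7 tested were above 0, as were 4 of 4 oligodendrocyte markers, and 0 were called. The 1 tested marker each of the endothelial, mural and choroid plexus lists was below 0 and not called. The part of these other cells in the Slc7a2 value was not tested. Members of the 4 related lists were called in 0 of 14, 0 of 5, 0 of 7 and 0 of 8 cases.

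The last comparison was whether the genotype difference itself differed between astrocytes and neurons. The edgeR fit called 0 of 67 carriers, where 0.394% of all tested genes were called. DESeq2 called 1 carrier and 2.65% of all genes, limma voom called 0 carriers, and 11 carriers had an unadjusted p under 0.05, where 14.8% of all tested genes did. Slc16a14 had the smallest p, with a difference of differences of -3.08 (SE 0.79, adjusted p = 0.0578). It measured 0.845, 0, 0, 0 and 0 CPM in P301S astrocytes, at or under the floor, 0.493, 2.17 and 3.21 in non-Tg astrocytes, 19.4, 35.7 and 42.2 in P301S neurons and 18.5, 30.7 and 45.1 in non-Tg neurons. The fitted value of a gene this low in astrocytes depends on the prior count and is no bound. Slc7a11 was at -1.25 (SE 0.60, adjusted p = 0.326), with neuron levels close to the floor in both genotypes.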

How the data were processed

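The deposited files hold, for each of 25 libraries, a count per gene of reads uniquely aligned to its gene model, per the file headers, and a normalized RPKM (nRPKM) that the authors derived from the counts with size factors. Per the submitters' processing notes GSNAP and GRCm38 were used; versions, gene models and strand handling were not given in the sources used here. Entrez IDs were matched to RefSeq symbols (31049 of 36528 IDs; the 5479 unmatched IDs held 3.30% of counts and stayed in the tests). The tables held 0 rows without a gene, and 2 member symbols with a suffix after the digits were left out.

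Counts were tested with edgeR 4.0.16 (R 4.3.3): TMM scaling, filterByExpr at its defaults, a robust quasi-likelihood F test and Benjamini-Hochberg adjustment over all genes tested. Genotype was tested within each cell type; cell type and the difference of genotype effects were tested in 1 fit of all 25 libraries. The SE is the log2 difference divided by the square root of F. Fits were tested on simulated data. Other settings were RLE size factors, DESeq2 1.42.0, limma 3.58.1 voom with quality weights, 2 other filters, covariates for genes detected and sex marker genes, other sets of libraries and each library left out. nRPKM was used only to compare levels between genes.

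Named genes were, per genotype comparison, up to 5 members in each direction with the smallest p; for non-Tg neurons against astrocytes, up to 4 called members per family and direction with a log2 difference of at least 1; and 18 carriers in any case. Slc25a11, Slc25a15, Slc25a27, Slc25a36 and the genes named from lists were chosen after their values were seen. 1 carrier is counted but not reported by name here. Members, lists and the naming rule were chosen with earlier results of these data known. The lists were 8 cell type marker lists and 4 lists of related genes. Further marker sums are given in CPM for non-Tg astrocytes and then non-Tg neurons. They were 90.7 to 226 and 10.5 to 22.0 for mural cells and fibroblasts, and 60.5 to 129 and 31.6 to 182 for microglia. For oligodendrocyte precursors they were 7.87 to 20.4 and 0 to 1.43. For choroid plexus and ependyma they were 1.46 to 83.7 and 8.54 to 22.8. Among 5 tested markers of mural cells and fibroblasts, 4 were called lower in non-Tg neurons and 1, Dcn, was called higher, at 4.77. Lum, not tested, also had a higher mean in non-Tg neurons (2.33 CPM against 0.136 in non-Tg astrocytes).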

Additional observations from a re-analysis of the deposited data

Results flagged for a closer look

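A gap between the highest or lowest library and the next that was large for the group's range was found in 23 of 146 group levels of the 44 named carriers with a mean above the highest floor, 2.27 CPM. The cut-offs used give about 1 in 20 by chance only for normally distributed levels. These levels are unlogged CPM of carriers partly named by their p in the same libraries, so the chance share is not known here. All values are TMM-scaled CPM, and the next value in the group stands beside each.

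Of the 23, 12 were in P301S astrocytes. Library 2 was highest for Slc2a3 (13.5, next 3.02), Slc7a5 (26.5, next 3.78) and Slc7a6 (13.2, next 3.78). Library 5 was highest for Slc2a10 (589, next 98.9), Slc16a1 (122, next 33.5) and Slc25a3 (136, next 63.6). Library 3 was highest for Slc25a25 (127, next 16.5) and Slc38a10 (93.4, next 24.2). Library 4 was highest for Slc25a44 (114, next 39.4) and Slc25a46 (115, next 35.5) and lowest for Slc38a3 (55.9, next 143). Library 1 was highest for Slc16a7 (19.1, next 4.41).

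In non-Tg astrocytes library 5 was highest for Slc7a5 (22.5, next 9.04) and Slc38a1 (280, next 178), and library 4 for Slc7a8 (31.5, next 7.36). In non-Tg neurons library 8 was highest for Slc7a6 (40.7, next 26.7) and lowest for Slc16a7 (79.8, next 149). Library 5 of that group was highest for Slc25a4 (91.8, next 45.6) and lowest for Slc25a25 (0.534, next 4.797). Library 6 was highest for Slc7a11 (7.21, next 3.55) and library 2 for Slc25a44 (24.2, next 15.2). In P301S neurons library 2 was highest for Slc7a8 (54.4, next 39.2) and library 1 lowest for Slc25a12 (32.1, next 39.01).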

How the results depend on the processing

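For non-Tg neurons against astrocytes 34 to 43 carriers were called under all settings tried, and for the P301S comparison 22 to 45, with 22 with genes detected as a covariate and 24 in a fit of that genotype alone. Between P301S and non-Tg astrocytes DESeq2 called 1 carrier (Slc7a11), 1 spread over all 25 libraries called 7 (where 11.8% of all genes were called), and leaving out libraries 3 and 4 together, a choice made after seeing the data, called 1 (Slc25a46); with each library left out the count was 0 to 1, and 1 only without P301S library 4. For the difference of genotype effects DESeq2 called 1 (Slc16a14), leaving out libraries 3 and 4 gave 3 (Slc25a15, Slc7a4 and Slc25a46), and with each library left out the count was 0 to 1: Slc16a14 without P301S astrocyte library 1 or non-Tg astrocyte library 4, Slc2a13 without P301S astrocyte library 2, Slc25a46 without 4 and Slc25a11 without 5. The cause was not tested. Between neuron genotypes 0 carriers were called in every setting run. For named carriers the direction turned in 1 case, Slc2a10 between astrocyte genotypes, at -0.0445 without P301S library 5 and up to 1.55 with each other library left out. Over all settings, single values of named carriers lost a call in 22 cases, gained one in 20 and kept direction and call in 1501. Carriers close to the floor have the least certain values. No paired analysis was possible because replicate numbers here only follow accession order and the labels tie no libraries to animals.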
